A study of Mus musculus with 20 samples.

Results

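The 31 genes described here form the endoplasmic reticulum (ER) and amino acid stress response, read in mouse liver on a 1-colour microarray. They were chosen by name: every non-control probe was taken whose gene name was a member or its older symbol (Armet for Manf). All 31 were measured, among 14689 named genes and 17186 rows tested. By the branch that is best known for inducing or holding them, 7 were assigned to the IRE1-XBP1 branch, 14 to the ATF6 branch and 10 to the ATF4 branch. A gene can answer to more than 1 branch, so this division is a convention.

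The study compared livers of mice labelled as responders to diet-induced obesity, meaning susceptible, with livers of mice labelled as non-responders, meaning resistant, 10 of each and 1 array per liver. Both groups were male mice of the C57BL/6J strain (the sample labels write C57BL/6), aged 6 weeks, and all had eaten a diet with 60% of its energy from fat since weaning. There was no group on a standard diet, so a change that the diet causes in both groups cannot be seen. The labels do not say how the mice were assigned to a group or whether they had been fasted. They number the livers without naming animals, so each p-value refers to the spread among these numbered samples.

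Proteins that enter the ER are folded by chaperones, and unfolded proteins there activate the sensors IRE1, ATF6 and PERK. IRE1 splices the Xbp1 transcript into one that encodes an active factor, ATF6 is cut into a factor that raises chaperone genes, and PERK phosphorylates eIF2, which lowers translation in general but raises that of ATF4. ATF4 is also reached when amino acids are scarce, through the kinase GCN2, and it raises genes of amino acid synthesis and transport. Hepatocytes secrete most plasma proteins and carry a high folding load.

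Members of the branches hold short promoter elements, which are shown first because the results below return to the genes that hold them. RefSeq promoter windows of 250 bases before and 50 bases after the start (build GRCm38.p6) matched 28 of the 31 members. The ER stress response element ERSE (CCAAT, any 9 bases, then CCACG) lay on 1 of the strands in 8 of these 28: Hspa5, Hsp90b1, Pdia6, Calr, Canx, Creld2, Dnajc3 and Syvn1. It lay in 0.119% of all 32851 windows. The shorter ERSE-II (ATTGG, any 1 base, then CCACG) lay in Dnajb11 and Herpud1, against 0.0365% of all windows. The C/EBP-ATF response element CARE (TGATGNAA), the site of ATF4 with a C/EBP partner, lay in Asns, Atf3, Chac1, Trib3 and Herpud1, against 3.97% of all windows. The core of the unfolded protein response element (TGACGTGG) lay in no member's window and in 0.676% of all windows. By branch, ERSE lay in 6 of 11 ATF6, 2 of 7 IRE1-XBP1 and 0 of 10 ATF4 genes with a window. CARE lay in 1, 0 and 4 of them. The IRE1-XBP1 and ATF6 branches thus share ERSE and ERSE-II. Both strands were searched; ERSE and ERSE-II share the CCACG end. In the stretches below, 5′ to 3′ along the gene, capitals mark ERSE in the first 5, ERSE-II in Herpud1 and CARE in the last 3, with an element on the opposite strand reading as its reverse complement.
Hspa5 (chr2:34772010-34772058, plus strand): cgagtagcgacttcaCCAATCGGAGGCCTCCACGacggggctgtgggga
Hsp90b1 (chr10:86705523-86705666, minus strand): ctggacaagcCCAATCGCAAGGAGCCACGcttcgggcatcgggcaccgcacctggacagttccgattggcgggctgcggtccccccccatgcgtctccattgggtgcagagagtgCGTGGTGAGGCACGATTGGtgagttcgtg
Creld2 (chr15:88819505-88819553, plus strand): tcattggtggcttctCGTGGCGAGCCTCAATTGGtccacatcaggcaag
Calr (chr8:84847060-84847108, minus strand): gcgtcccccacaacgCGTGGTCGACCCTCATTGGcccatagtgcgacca
Pdia6 (chr12:17266476-17266524, plus strand): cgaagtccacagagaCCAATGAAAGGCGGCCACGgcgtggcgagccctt
Herpud1 (chr8:94386362-94386402, plus strand): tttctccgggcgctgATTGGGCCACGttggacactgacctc
Chac1 (chr2:119351034-119351071, plus strand): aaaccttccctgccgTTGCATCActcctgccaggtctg
Asns (chr6:7693210-7693247, minus strand): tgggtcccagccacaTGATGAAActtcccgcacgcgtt
Atf3 (chr1:191183421-191183458, minus strand): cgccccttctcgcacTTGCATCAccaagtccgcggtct
Hsp90b1 holds 2 elements, 1 on each strand. A match is only a match of letters, and nothing about binding was measured.

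Levels are given as log2 of the processed spot signal minus that of the array's 75th percentile, so a level of 0 equals that percentile, and levels of different probes are not comparable. The 75th percentile itself ran from 280.1 to 656.8 signal units over the 20 arrays, and 55.8% to 71.2% of probes were well above background. The arrays fall into 2 slide series of 10, which coincide with the scan date; the first held 6 non-responders and 4 responders, the second 4 and 6, and series was a term in the fit. The probes used for the 31 members were well above background on all 20 arrays. The hepatocyte list had 7 of its 8 markers tested, Alb among them, all well above background on every array. Pancreatic acinar transcripts varied widely in the dissected tissue, from a mean of -5.29 to 5.18 over livers, in both groups. Adipocyte markers were lower in responders for 4 of the 4 tested, by 1.37 on the log2 scale for Adipoq (SE 0.58, adjusted p = 0.599 in limma). Their summed level ran from -21.3 to -3.64 in non-responders and from -23.9 to -10.6 in responders. Plin1 was well above background in 3 responders and 8 non-responders, and Retn in 2 and 6. Both were thus kept for testing only through the non-responders, which favours a lower level in responders, and both enter the sum.

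No member passed the threshold between responders and non-responders after adjustment over all rows. In limma with Benjamini-Hochberg adjustment at 0.05, 0 of the 31 members and 0 of 17186 rows (0%) were called. At an unadjusted p under 0.05, 4 members passed, Ern1, Calr and Sdf2l1 higher and Sesn2 lower in responders, which is 12.9% of the members against 7.98% of all rows (4.25% higher and 3.73% lower). With Adipoq as a covariate 1 of them passed, Ern1 (0.32), where 6.58% of all rows did, and without non-responder 10 there were 2, Ern1 (0.33) and Sesn2 (-0.36), where 6.71% did. With normexp background correction the 2 that passed were Sesn2 (-0.48) and Asns (-0.41), where 2.33% of rows did. After that correction the array of responder 1 had an SD of only 0.52 on the log2 scale, against 1.35 or more on the others. The members were higher in responders for 17 and lower for 14, where 48.9% of all rows were higher. The number higher became 11 with Adipoq as a covariate (47.5% of all rows) and 7 with normexp (53.5% of all rows). Their median difference was 0.02, with 0.05 in the IRE1-XBP1 branch, 0.03 in the ATF6 branch and -0.11 in the ATF4 branch, and -0.0031 over all rows. In whole tissue, fewer cells of a type and less RNA per cell cannot be told apart. The ranges of the groups overlapped for each of the 31 members, and 0.00582% of all rows had ranges that did not overlap.

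**Figure D1:**
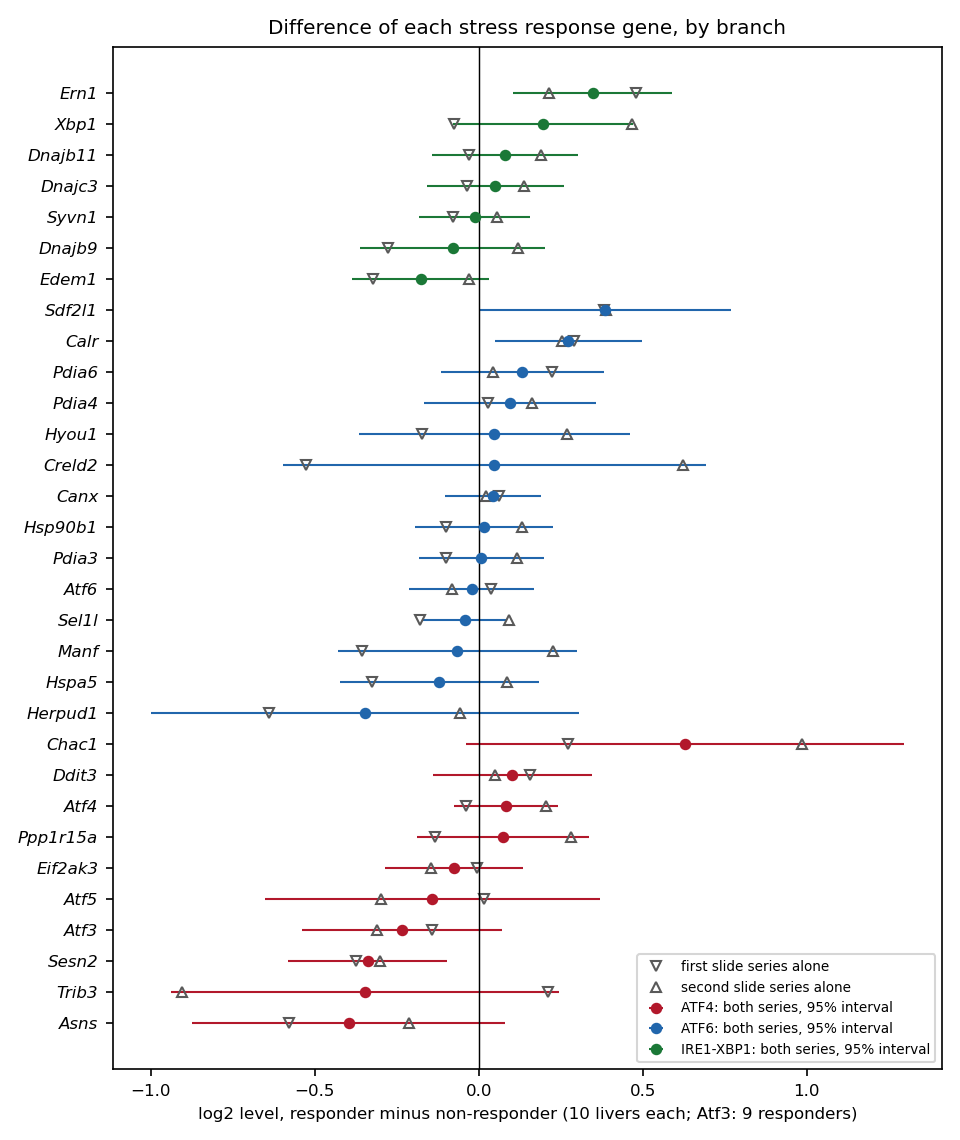
Log2 level in responders minus non-responders for each of the 31 genes (x axis), grouped by branch; filled points are the fit over both slide series with its 95% interval, open triangles the difference within each series. The intervals of Ern1, Sdf2l1, Calr and Sesn2 lie off 0, Chac1 has the largest difference (0.63) with an interval that includes 0, and the series often fall on either side of 0.

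The IRE1-XBP1 branch begins with its sensor. Ern1, which encodes IRE1, ran from 0.06 through a median of 0.49 to 1.03 in non-responders and from 0.20 through 0.65 to 1.44 in responders. The highest liver was responder 2 and the lowest non-responder 10; 9 of 10 responders exceeded the mean of the non-responders in the same slide series. The difference was 0.35 (SE 0.12, 1.27-fold, unadjusted p = 0.00734, adjusted p = 0.524 in limma), at 0.48 within the first series and 0.21 within the second. Xbp1, the transcript that IRE1 splices, ran from 3.02 through 3.39 to 3.74 in non-responders and from 3.24 through 3.56 to 4.03 in responders. Its groups overlapped through most of their range, and the difference was 0.19 (SE 0.13, adjusted p = 0.735). The first series gave -0.08 and the second 0.47, a difference between series of 0.54 (SE 0.24, unadjusted p = 0.0344, adjusted p = 0.482 in the limma interaction). The array gives the level of Xbp1, and its splicing was not measured.

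The BiP co-chaperones Dnajb9, Dnajb11 and Dnajc3 and the degradation genes Edem1 and Syvn1 complete this branch. Edem1, which takes misfolded glycoproteins out of folding, ran from 2.25 through 2.74 to 3.01 in non-responders and from 2.06 through 2.56 to 3.18 in responders, and 2 of 10 responders exceeded the non-responder mean within their series. Its difference was -0.18 (SE 0.10, adjusted p = 0.680), while another of its probes gave 0.08. Dnajb9 differed by -0.08, Dnajb11 by 0.08, Dnajc3 by 0.05 and Syvn1, the ubiquitin ligase HRD1, by -0.01, each within 1 SE of 0.

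The ATF6 branch holds the lumenal chaperones, and the levels of its main chaperone overlapped between the groups. Hspa5, which encodes BiP, ran from 5.28 through 6.09 to 6.35 in non-responders and from 5.32 through 5.71 to 6.31 in responders. Both groups covered nearly the same range. The difference was -0.12 (SE 0.14, adjusted p = 0.841), with a 95% interval of -0.42 to 0.18. It was -0.33 within the first series (SE 0.14) and 0.08 within the second (SE 0.23). The difference between series was 0.41 (SE 0.28, adjusted p = 0.644 in the limma interaction). The factor Atf6 itself differed by -0.02 (SE 0.09).

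Calreticulin and SDF2L1 carried the positive differences of this branch. Calr, a lectin chaperone that binds glycoproteins in the lumen, ran from 4.87 through 5.38 to 5.97 in non-responders and from 5.37 through 5.68 to 6.08 in responders. Each of the 10 responders exceeded the mean of the non-responders in its series, though the groups overlapped. The difference was 0.27 (SE 0.11, 1.21-fold, unadjusted p = 0.0200, adjusted p = 0.569), with 0.29 and 0.25 in the series, and another Calr probe gave 0.39 in a fit over probes (SE 0.13). With normexp background correction, after which the array of responder 1 had the smallest SD of all arrays, the Calr difference turned to -0.22 (SE 0.40). Sdf2l1, which acts with ER J-domain co-chaperones, ran from 1.55 through 2.21 to 3.06 in non-responders and from 2.17 through 2.49 to 3.19 in responders. The lowest 5 livers were all non-responders. Its difference was 0.39 (SE 0.18, 1.31-fold, unadjusted p = 0.0495, adjusted p = 0.625), with 0.38 and 0.39 in the series. Canx, the membrane-bound partner of calreticulin, differed by 0.04 (SE 0.07).

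Apart from Herpud1, the other genes of this branch lay closer to 0 on the probes used. The disulphide isomerases Pdia3, Pdia4 and Pdia6 differed by 0.01, 0.09 and 0.13, and the Hsp70-type and Hsp90-type chaperones Hyou1 and Hsp90b1 by 0.05 and 0.02. Creld2, a secreted ER stress protein, ran from 3.53 through 5.06 to 6.09 in non-responders and from 3.91 through 5.09 to 6.04 in responders, so the groups covered almost the same span. Its difference was 0.05 (SE 0.31), made of -0.53 within the first series and 0.62 within the second. Manf, a secreted ER protein with protective effects on cells, differed by -0.07 (SE 0.17), from -0.36 to 0.23 by series. Herpud1, a membrane part of the ER degradation machinery, ran from 4.20 through 5.99 to 6.78 in non-responders and from 4.40 through 5.39 to 6.59 in responders; the difference was -0.35 (SE 0.31, adjusted p = 0.796). Sel1l, the partner of HRD1, differed by -0.04 (SE 0.06), with -0.18 and 0.09 by series (unadjusted p = 0.0196, adjusted p = 0.457 for the difference between series in limma). In a fit over probes, another Sel1l probe gave 0.23 (SE 0.11, unadjusted p = 0.0452 in limma) and another -0.07, so its direction depends on the probe. Other probes also turned the sign of Hyou1 (-0.19, SE 0.22) and of Pdia6 (-0.06, SE 0.27, with 0.22 and 0.28 at a further pair).

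The ATF4 branch had differences in both directions. Atf4 differed by 0.08 (SE 0.08), Ddit3, which encodes CHOP, by 0.10 (SE 0.12), and Eif2ak3, which encodes PERK, by -0.08 (SE 0.10). Atf3, a stress-induced factor, ran from -3.44 through -2.74 to -2.07 in non-responders and from -3.43 through -2.94 to -2.75 in responders. The groups overlapped, but 0 of the 9 responders measured exceeded the mean of non-responders in its series. The difference was -0.23 (SE 0.14, adjusted p = 0.708 in limma) over 19 arrays, since the spot on the array of responder 1 was an outlier and was left out, and the same fit on the authors' deposited values gave 0.75 (SE 0.75). Ppp1r15a, the phosphatase subunit that reverses eIF2 phosphorylation, differed by 0.07 (SE 0.13), and Atf5 by -0.14 (SE 0.24).

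Sesn2, a stress-induced leucine sensor that restrains mTORC1, ran from 1.09 through 1.49 to 1.92 in non-responders and from 0.75 through 1.26 to 1.51 in responders. Of the 10 responders, 1 exceeded the mean of non-responders in its series. The difference was -0.34 (SE 0.12, 0.791-fold, unadjusted p = 0.00866, adjusted p = 0.524), with -0.37 and -0.30 in the series, but its other probe gave 0.05 (SE 0.10). Asns, which makes asparagine, ran from 0.31 through 1.097 to 1.59 in non-responders and from -0.26 through 0.49 to 1.56 in responders. Responders lay mostly in the lower part of the range, with 3 of 10 exceeding the mean of non-responders in their series. The difference was -0.40 (SE 0.23, adjusted p = 0.690).

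Chac1, which degrades glutathione and is a target of ATF4 and CHOP, ran from -0.18 through 1.12 to 2.64 in non-responders and from 1.17 through 1.86 to 2.63 in responders. The groups shared their upper end, and the lowest 5 livers were all non-responders. Its difference was 0.63 (SE 0.32, 1.55-fold, unadjusted p = 0.0636, adjusted p = 0.644), the largest of the members. Trib3, a pseudokinase induced late in the response, ran from -0.26 through 0.93 to 2.62 in non-responders and from -0.14 through 0.85 to 1.47 in responders. Its difference was -0.35 (SE 0.28, adjusted p = 0.775), at 0.21 within the first series and -0.91 within the second (difference between series -1.11, SE 0.52, unadjusted p = 0.0452, adjusted p = 0.505 in limma). Asns, Chac1 and Trib3 each hold the CARE letters in their window, and their differences did not share a sign.

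**Figure D2:**
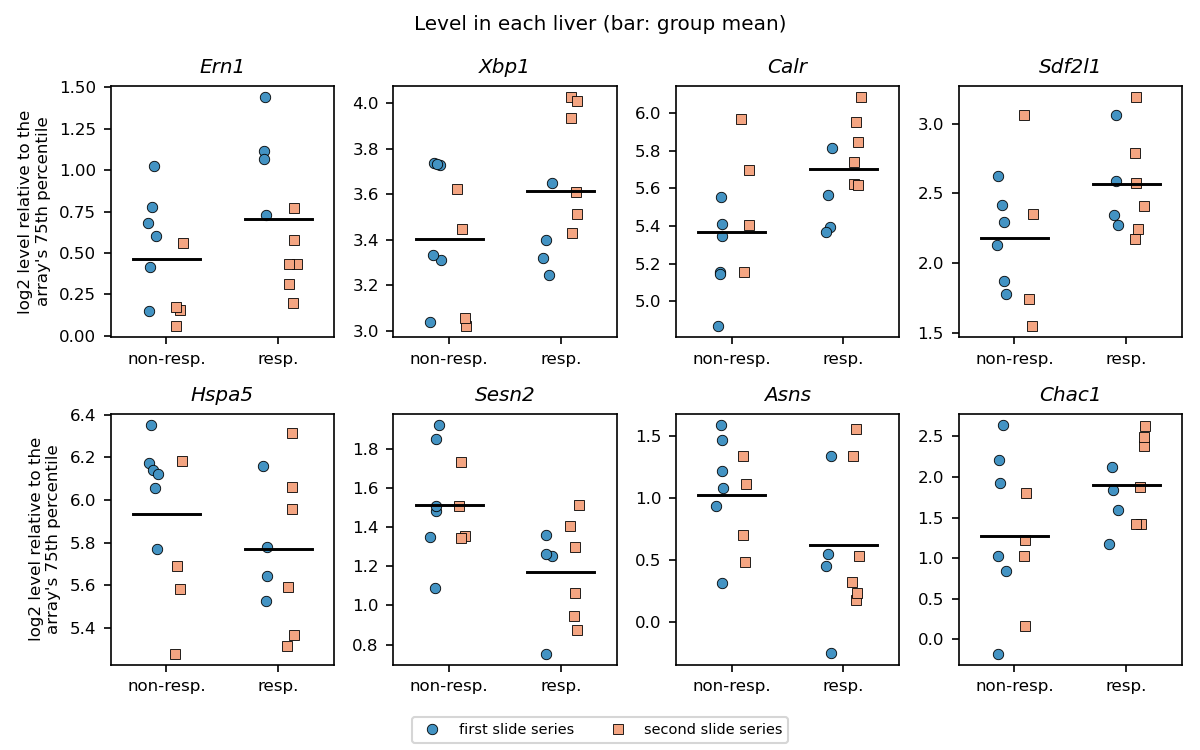
Log2 level relative to the array's 75th percentile (y axis) in each of the 20 livers for 8 of the genes, by group (x axis) and slide series (circles first, squares second), with bars at the group means. The groups overlap in each panel; the 10 responders sit between 5.37 and 6.08 for Calr and between 1.17 and 2.63 for Chac1, where some non-responders lie lower.

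The signs of the members differed between the slide series. Within the first series 11 members were higher in responders (35.5%, against 53.4% of all rows), and within the second 22 (71.0%, against 44.6%). The second series held only 4 non-responders. Their mean levels over the 30 members with a value on every array were 2.79, 2.95, 3.12 and 2.77 (non-responders 7, 8, 9 and 10). That of non-responder 10 was the lowest of all livers. The count in the second series without it was not tested. Members that vary together over livers were each counted. The difference was larger in the second series for 21 of 31 members (67.7%), against 43.2% of all rows, and 14 had the same sign in both (45.2%, against 48.8%). By the interaction at an unadjusted p under 0.05, 3 members passed (9.68%, against 9.66% of all rows), Sel1l, Xbp1 and Trib3. None of the 31 passed after adjustment in limma, nor did any row (0%).

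Of the other genes of the pathway, none passed the adjusted threshold, so the counts are at an unadjusted p under 0.05. Among 16 regulators tested, 1 passed, Creb3 at -0.15. ER import and folding genes were higher in responders for 24 of 33 (72.7%, against 48.9% of all rows), with a median of 0.04. Within the first series 16 of these 33 were higher and within the second 25, against 53.4% and 44.6% of all rows. Of the 33, 1 passed, P4hb (0.17, SE 0.07), a disulphide isomerase. Of 17 further degradation genes 11 were higher (64.7%), with 6 higher within the first series and 12 within the second, and 0 passed. The amino acid response list had 7 of 28 pass (25.0%, against 7.98% of all rows), 4 higher and 3 lower. The lower ones were Psat1, an enzyme of serine synthesis (-0.47, SE 0.15, adjusted p = 0.521), Cth, which makes cysteine (-0.29), and the leucyl-tRNA synthetase Lars1 (-0.22). The higher ones included the glycyl-tRNA synthetase Gars1 (0.21), the mitochondrial serine-to-glycine enzyme Shmt2 (0.19) and the methionyl-tRNA synthetase Mars1 (0.13). The named synthetases thus lay on both sides of 0. Most other synthetases of the list were higher in responders, by up to 0.14, and the rest lower at -0.04. None of those others passed.

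Many members varied widely between livers of the same group. The SD over livers within group and slide series exceeded the median of all rows (0.228) for 21 of 31 members, where 50% of rows do by definition. It was largest for Chac1 (0.739), Herpud1 (0.729), Creld2 (0.667), Trib3 (0.602) and Atf5 (0.576), all 5 above the 90th percentile of rows (0.554), and smallest for Sel1l (0.0996). From the lowest to the highest liver Trib3 spanned 7.36-fold, Chac1 7.04-fold, Herpud1 5.98-fold and Creld2 5.90-fold, while Sel1l spanned 1.33-fold.

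This spread was shared by some of the chaperone genes. After the mean of each group within its slide series was subtracted, the level of Hspa5 was set against each of the other 30 members over the 20 livers. Pearson's r was above 0.5 for 8 of 30, against 6.13% of all rows. By permutation within group and series, adjusted over the 30, 6 members passed 0.05. Manf had r = 0.90 (permutation p = 3e-05, adjusted p = 0.0009; Spearman's rho 0.89, permutation p = 1e-05, adjusted p = 0.0003), the highest r with Hspa5 of all rows. Creld2 followed with r = 0.83 (permutation p = 0.0003, adjusted p = 0.0045, rho 0.84 with permutation p = 0.00014) and Hyou1 with 0.73 (permutation p = 0.00254, adjusted p = 0.019, rho 0.70 with permutation p = 0.0039). Edem1 (0.64) and Sel1l (0.58) had adjusted permutation p = 0.0307 each. Atf5 ran the other way, at r = -0.65 (permutation p = 0.00163, adjusted p = 0.0163, rho -0.69 with permutation p = 0.00108). Without non-responder 10 and responder 9, the livers farthest from the Hspa5 median, the values were 0.88 for Manf, 0.78 for Creld2, 0.66 for Hyou1, 0.63 for Edem1, 0.68 for Sel1l and -0.76 for Atf5, and 10 members passed. Within the series of 10 livers Manf had 0.85 and 0.92 and Atf5 -0.75 and -0.69, and 0 and 2 members passed.

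Other ER chaperones had low or negative r with Hspa5. Pdia6 had r = -0.25 with it, Sdf2l1 -0.25, Calr -0.22 and Pdia3 6.41e-05, and none passed. The factor transcripts Xbp1 (-0.11), Atf4 (-0.09) and Ddit3 (0.22) did not pass either. Among named genes outside the members, on probes well above background on all arrays, those with the highest r over the 20 livers were Hspa13, an Hsp70-type ER protein (0.87), C4bp-ps1 (0.86), Sik1 (0.84), Cabyr (0.84) and Nnmt (0.84). The ER oxidase gene Ero1b had 0.81.

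All 465 pairs of members were then correlated in the same way, a step chosen after the values with Hspa5 were seen. After adjustment over the 465 pairs, 38 passed 0.05, 32 positive and 6 negative, and all 38 kept their sign in both series. By rho as well, 34 of them passed. Within the series of 10 livers 0 and 3 pairs passed. Of the 38, 16 lay within the ATF6 branch, 1 within the IRE1-XBP1 branch and 1 within the ATF4 branch, the rest across branches. In the ATF6 branch 40.7% of 91 pairs had r above 0.5, against 2.22% of 45 pairs in the ATF4 branch and 5.15% of all pairs of rows. The median r was 0.41, 0.07 and 0.006. In the IRE1-XBP1 branch 19.0% of 21 pairs had r above 0.5 (median r 0.10). Between that branch and the ATF6 branch 25.5% of 98 pairs did (median r 0.23).

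The chaperones formed 2 blocks in the plot of pairwise correlations, described here with no test of one block against the other. In the first, each pair among Hspa5, Manf, Creld2 and Hyou1 passed. Hsp90b1 passed with Hyou1 and Creld2, but not with Manf (r = 0.63, adjusted permutation p = 0.0689) or Hspa5 (0.53, adjusted permutation p = 0.155). Hyou1 with Creld2 had r = 0.91 and Hsp90b1 with Hyou1 0.91 (adjusted permutation p = 0.000775 each, rho 0.92 and 0.91). In the second, Pdia6 with Sdf2l1 had 0.91, Calr with Sdf2l1 0.89 (adjusted permutation p = 0.000775 each, rho 0.90 and 0.92) and Pdia6 with Calr 0.86. Without the 2 livers farthest from the median of the first gene of each pair these 5 values were 0.86, 0.89, 0.83, 0.90 and 0.81. The co-chaperones Dnajb11 and Dnajc3 had r = 0.91 with each other, and Dnajb11 had 0.83 with Hsp90b1 and 0.88 with Pdia4. Dnajb11 and Pdia4 were positive with genes of both blocks, so the blocks are not fully separate. They had 0.80 and 0.69 with Hyou1, and 0.60 and 0.67 with Sdf2l1. Of these values, that of Dnajb11 with Hyou1 alone passed. Both blocks hold genes with ERSE in their windows, Hspa5 and Creld2 in the first, Pdia6 and Calr in the second, and Hsp90b1 has it too.

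**Figure D3:**
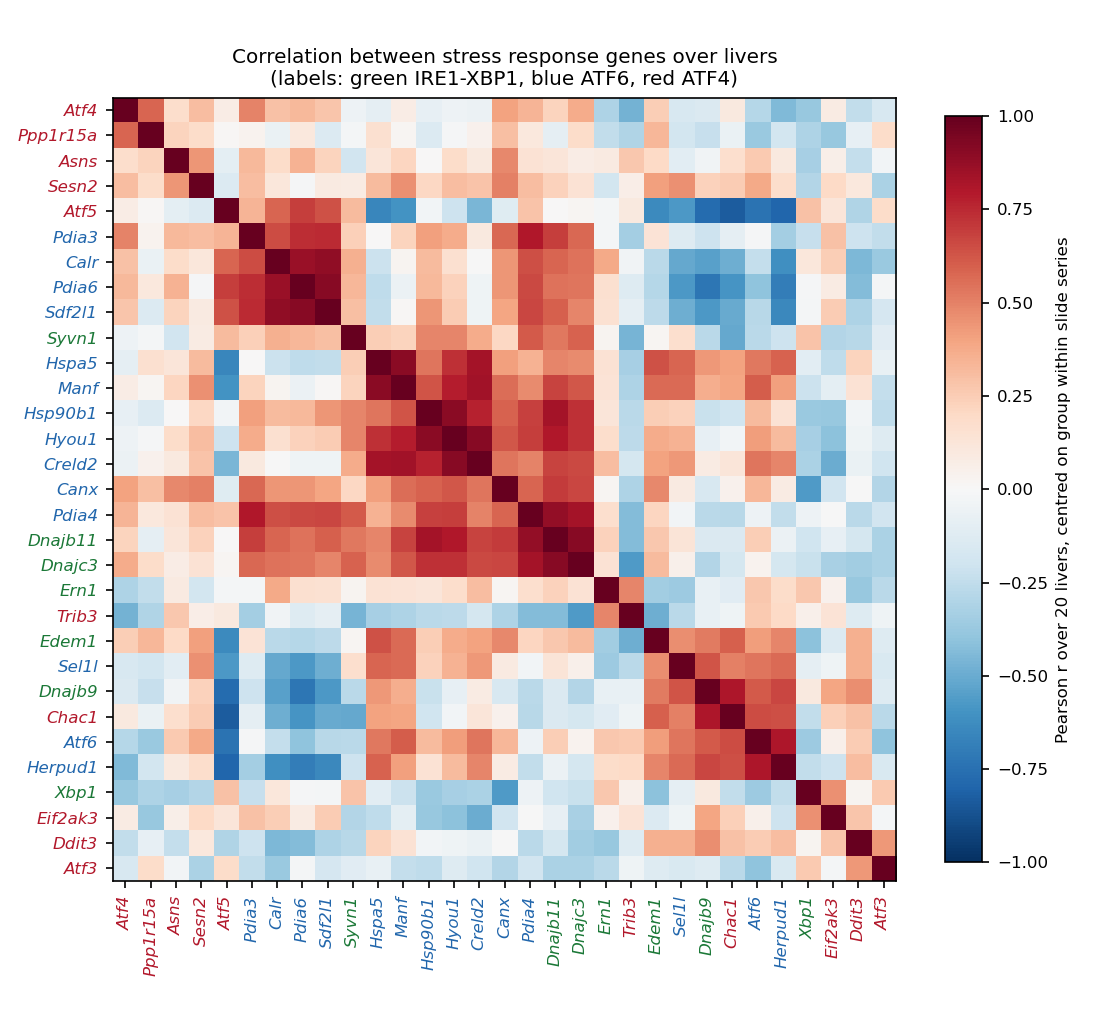
Pearson's r between each pair of the 31 genes over 20 livers, after centring on group within slide series (colour scale from -1 to 1), with genes ordered by average linkage and labels coloured by branch. Hspa5, Manf, Hyou1 and Creld2 have r between -0.25 and 0.25 with Calr, Pdia6 and Sdf2l1, while Dnajb11 and Pdia4 are positive with both blocks. Atf5 is negative against Dnajb9, Chac1, Atf6 and Herpud1.

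A set of genes from all 3 branches varied against Atf5. Dnajb9 and Chac1 had r = 0.81 (adjusted permutation p = 0.00325, rho 0.76) and Atf6 and Herpud1 0.81 (adjusted permutation p = 0.00232, rho 0.80). Atf5, a factor whose translation is raised by the same route as that of ATF4, had r = -0.83 with Chac1 (adjusted permutation p = 0.00426, rho -0.82), -0.79 with Herpud1 (0.00432, rho -0.80), -0.77 with Dnajb9 and -0.74 with Atf6. Atf5 correlated positively with Pdia6 (0.69) and Sdf2l1 (0.63), while its r of 0.58 with Calr did not pass (adjusted permutation p = 0.0819). Herpud1 had r = -0.69 with Pdia6, and did not pass with Sdf2l1 (-0.65, adjusted permutation p = 0.0819) or Calr (-0.61, adjusted permutation p = 0.0981). Atf5 itself ran from 5.40 through 6.58 to 7.33 in non-responders and from 5.51 through 6.41 to 7.03 in responders, spans that nearly coincide. Atf4 and Atf5 had r = 0.07 with each other.

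**Figure D4:**
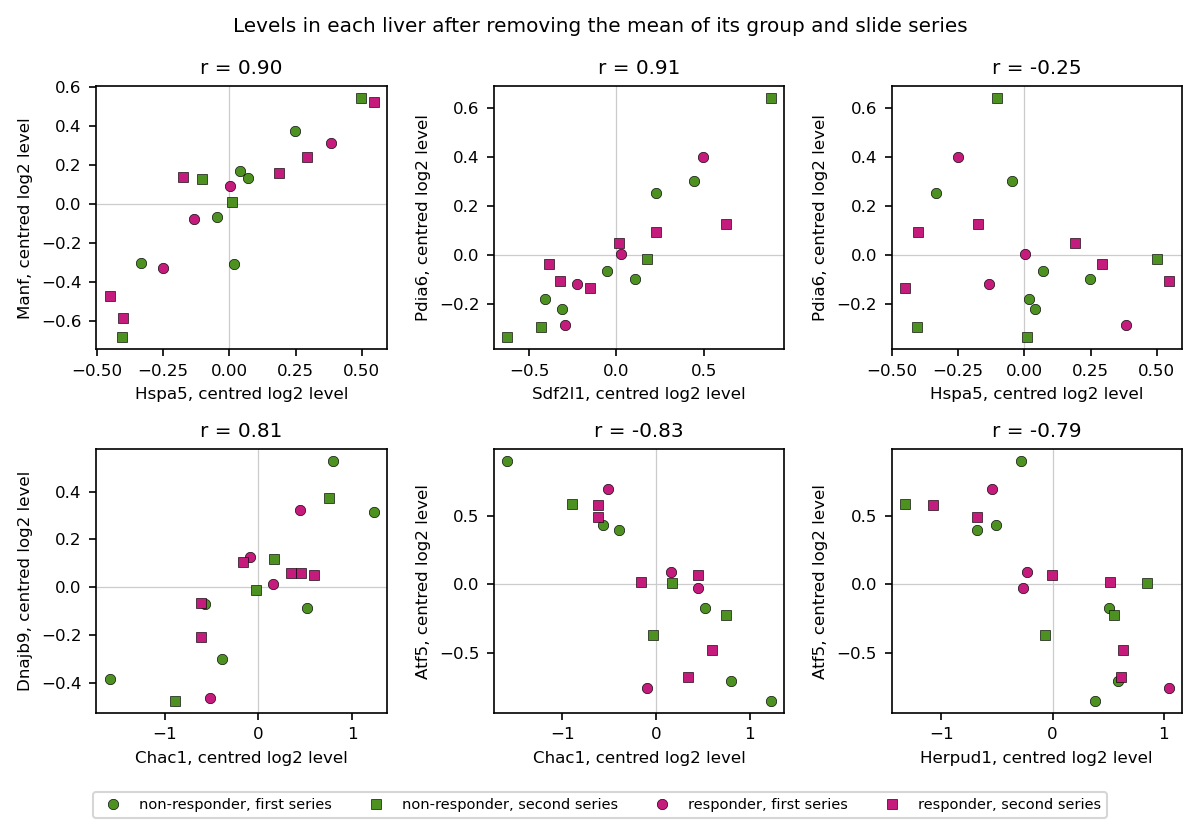
Log2 level of 6 pairs of genes in each of the 20 livers, after subtracting the mean of its group and slide series, with group by colour and series by shape. Manf rises with Hspa5 (r = 0.90) and Pdia6 with Sdf2l1 (0.91), Pdia6 against Hspa5 has -0.25, and Atf5 falls with Chac1 (-0.83) and Herpud1 (-0.79).

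Means of the hepatocyte, B and plasma cell, pancreatic acinar and adipocyte marker lists were set beside these blocks over the same livers. Their r with the members is a description with no test. The mean of the hepatocyte list had r = 0.74 with Hspa5, 0.71 with Manf and 0.76 with Edem1, and -0.63 with Atf5; 10 of 31 members exceeded 0.5 in size, against 19.6% of rows. The mean of the B and plasma cell list had 0.56 with Calr and 0.55 with Sdf2l1, the only 2 members over 0.5 in size, against 3.31% of rows. The pancreatic acinar mean exceeded 0.5 in size with none of the members (-0.33 to 0.32), against 3.99% of rows. The adipocyte mean did so with Syvn1 alone (-0.53), against 7.26% of rows. After the level of the hepatocyte list was removed by regression, 34 pairs passed, 22 of them among the 38. Hspa5 with Atf5 went from -0.65 to -0.37 and Atf6 with Manf from 0.61 to 0.35, the pairs among the 38 whose r moved by over 1.5 times, while Hspa5 with Manf had r = 0.80, Atf5 with Chac1 -0.78 and Pdia6 with Sdf2l1 0.91. After removal of the B and plasma cell list Calr with Sdf2l1 had 0.84, and 36 of the 38 pairs passed.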

How the data were processed

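Liver RNA of 10 responders and 10 non-responders was labelled with Cy3 and read on Agilent arrays. The deposited spot intensity is background-subtracted within each array by Agilent Feature Extraction (10.5.1.1 per the file headers, 9.1 per the submitters' processing notes) and is not scaled between arrays; a deposited table of processed intensity (33220 rows, 14519 matched) served as an alternative. Controls and outlier spots were dropped, spots averaged, log2 taken and each array's 75th percentile subtracted. A probe was kept (26160 were) if at least 5 arrays of 1 group found it well above background, and the brightest probe stood for each gene (17186 rows). Symbols came from a RefSeq table (GRCm38.p6), used for names and promoter windows only.

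The comparison used limma 3.58.1, run in R 4.3.3 (group and slide series; Benjamini-Hochberg over all rows). Correlations over livers used 100000 permutations within group and series (numpy 2.4.6). Both were tested on simulated data. The number of arrays limits the precision. Of 13 slides, 3 held both groups; arrays of a slide correlated at 0.0369. The members have 53 probes; in 8 of the 14 genes with several, the probes disagreed in sign (Atf6, Dnajc3, Edem1, Eif2ak3, Hyou1, Pdia6, Sel1l and Sesn2). All 31 members are named, and of other pathway genes those passing an unadjusted p under 0.05, at most 3 in each direction of a list. The members and lists were chosen with earlier results of these data known.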

Additional observations from a re-analysis of the deposited data

Results flagged for a closer look

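In 4 of 62 groups of livers examined, 1 liver lay far from the others by Dixon's criterion, which chance alone meets in about 1 of 20. Responder 3 had the lowest Dnajb9 level of its group (1.267, the nearest other at 1.743) and the highest Pdia6 level (6.296, nearest 5.909). Non-responder 10 had the lowest Manf level (2.02, nearest 2.713). Non-responder 8 had the lowest Herpud1 level (4.199, nearest 5.454). Without responder 3 or any other single liver, the differences of Pdia6 (0.06 to 0.24) and Herpud1 (-0.58 to -0.24) kept their sign, while those of Dnajb9 (-0.17 to 0.01) and Manf (-0.20 to 0.01) reached past 0.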

How the results depend on the processing

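No member was called under any of the alternatives run. Ern1, Sdf2l1, Chac1, Asns, Sesn2, Ddit3 and Herpud1 kept their sign in each that gave a value. Main counts were 4 members at an unadjusted p under 0.05 and 17 higher in responders. With normexp background correction, after which the array of responder 1 had an SD of only 0.52 on the log2 scale against 1.35 or more on the others, these became 2 and 7, the medians were -0.36 for all members, -0.36 for the IRE1-XBP1 branch and -0.38 for the ATF6 branch, and Calr turned to -0.22. With Adipoq as a covariate they were 1 and 11, and without non-responder 10 the first was 2. The first slide series alone gave 11 higher and a median of -0.0765 for the IRE1-XBP1 branch, and the authors' deposited values a median of 0.0763 for the ATF4 branch. Members correlated with Hspa5 (6) numbered 10 without the farthest livers, 0 within the first series and 2 within the second; correlated pairs (38) numbered 0 and 3 there. A series alone holds 10 of the 20 livers. The cause of the other changes was not tested. Leaving out each liver in turn gave 2 to 6 members at an unadjusted p under 0.05, 12 to 19 members higher, 0 called, and medians of -0.03 to 0.05 for all members, -0.03 to 0.11 for the IRE1-XBP1 branch, -0.03 to 0.06 for the ATF6 branch and -0.17 to -0.04 for the ATF4 branch. The labels do not say whether a shared replicate number pairs livers of the groups. Same-numbered livers correlated at -0.18 to 0.59, with 3 of 10 best with their own number, which does not settle it. With the number as a replicate block, 6 members had an unadjusted p under 0.05 in limma, 18 were higher and 0 rows were called. Alternatives on pairs and on the pancreatic acinar list were chosen after seeing the data.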
